A study of Homo sapiens with 8 samples.

Results

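This report describes the first 40 min after 4-thiouridine was washed out of THP-1 cells, a human monocytic leukaemia line with a KMT2A-MLLT3 fusion. Cells had taken up 30 µM 4-thiouridine (4sU), a uridine analogue that enters new RNA, for 12 h, with the medium exchanged every 3 h. They were then rinsed in ice-cold PBS and returned to warm medium with 3 mM uridine, the chase. The libraries harvested 20 min and 40 min into that chase were compared with the library harvested at its start, called 0 h. These are 3 of the 8 libraries of the study, which also has later chase times of 1, 2, 8 and 12 h and 1 library made without any 4sU. All cells are of 1 line, and each condition is 1 library.

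Each library was made from 3′ ends of mRNA by SLAM-seq, in which iodoacetamide turns incorporated 4sU into a base that reverse transcription reads as a T-to-C change. Reads with such changes are called labelled here and the remaining reads unlabelled. RNA made during the pulse can be labelled, and RNA made after the washout is made from a pool of nucleotides that the added uridine dilutes. A gene was tested where it had 50 or more total reads in at least 1 of the 3 libraries, which held for 9488 of 15380 genes with a read in the series. The same minimum left 7622 genes for labelled reads and 8326 for unlabelled reads.

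Immediate-early genes are the genes that a cell switches on within minutes of a new signal, from transcription machinery that is already in place and without new protein synthesis. Many encode transcription factors of the AP-1, EGR, NR4A and KLF families. Others encode inhibitors that shut the signal off again, such as phosphatases of MAP kinases and regulators of G-protein and cytokine receptors. Their mRNAs are usually short-lived, and serum, growth factors and stress are classical inducers. Some of the genes named below belong to this group.

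Gene reads summed to 8710651 at 0 h, 8815104 at 20 min and 9542645 at 40 min, so that 50 reads correspond to between 5.24 and 5.74 reads per 1000000 gene reads of the library (RPM). The labelled share of all reads was 30.6% at 0 h, 30.1% at 20 min and 30.7% at 40 min, and 0.0121% without 4sU. Genes of the myeloid lineage were present throughout. Of 16 myeloid markers, 15 reached the minimum and none was past 2-fold. A ratio above 1 was seen in 4 of the 15 at 20 min and in 3 at 40 min. Their median log2 ratio was -0.086 and then -0.042. LYZ, which encodes lysozyme, was at 424, 432 and 442 RPM, and ELANE went the other way with 1211, 1124 and 1062 RPM. None of the listed lymphocyte, erythroid, epithelial or fibroblast and endothelial markers with a value reached 50 reads in any of these libraries. No value was available for CD3E, CD2, HBB, HBG2, KRT5, KRT14, PECAM1 and CDH5. With 1 library per time there is no replicate error and no test. A gene counts as higher or lower when its total RPM was at least 2-fold above or at most 0.5-fold of the 0 h value. Each ratio carries an exact 95% interval for counting error only, since each time is 1 library. The reads have no molecular identifiers, so even for counting error this interval can be too narrow. Among 5695 genes with 200 or more reads in each library, log2 ratios to 0 h scattered with a robust SD of 0.10 at 20 min and 0.11 at 40 min, 1.39 and 1.49 times what counting alone gives.

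At 40 min 33 genes were higher (0.348% of those tested) and 8 were lower (0.0843%). FOS, FOSB, DUSP1 and NR4A2 rose more than 10-fold, while 17 of the 33 were under 3-fold. Of the risers, 20 were on the gene lists described below and 13 on none. The lists were chosen with earlier results of these data known, and the share of all tested genes on a list is not given. This split is therefore a description and not a finding. At 20 min the counts were 16 higher (0.169%) and 7 lower (0.0738%). The interval excluded 1 for each of these genes at both times. The minimum of 50 reads and the 2-fold line largely fix that outcome in advance, so it adds no support. In such bulk libraries, more responding cells and more RNA per cell cannot be told apart, and RPM does not show a change in the total RNA of a cell. The median log2 ratio over all genes was 0.001 at 20 min and 0.003 at 40 min. Both comparisons use the same 0 h library, so their values are set side by side and their overlap is not a separate finding. Of the 33 risers at 40 min, 17 already had 50 reads at 0 h, and the other 16 entered the test through a later library. Among the latter are DUSP1, EGR3, FOSB, NR4A2, RGS1 and SIK1, which count in the lists below and reached 50 reads only in a later library. The 2-fold line fell between PTAFR (2.01-fold) and SMIM14 (2.00-fold, just short of the line), and on the low side between ZNF669 (0.494) and HES1 (0.507).

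**Figure D1:**
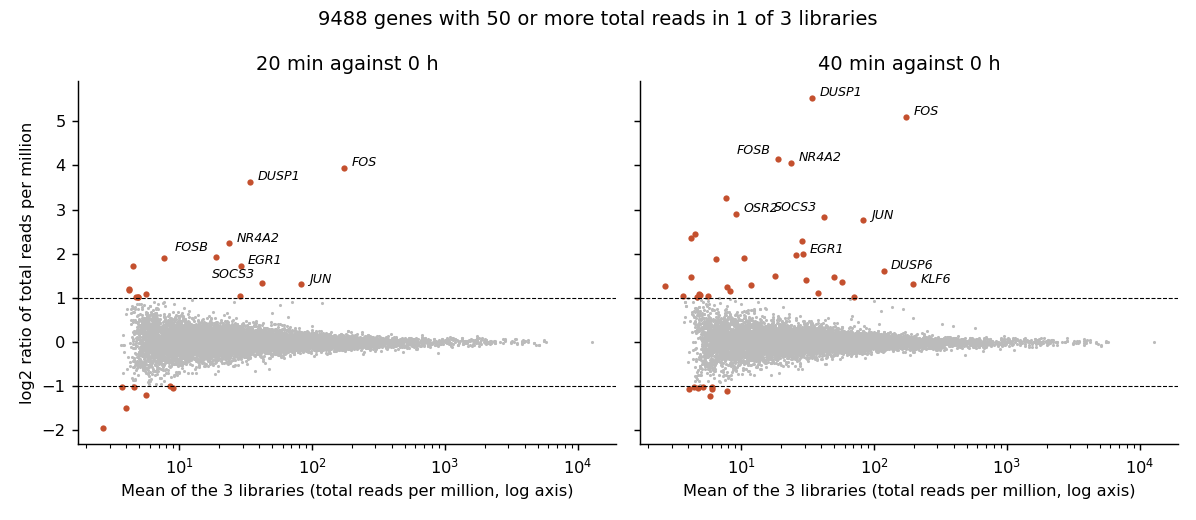
Log2 ratio of total RPM at 20 min (left) and 40 min (right) to 0 h against the mean of the 3 libraries on a log axis, 1 point per gene for 9488 genes, with genes past 2-fold in red and dashed lines at 2-fold. Genes above 2-fold lie up to a log2 ratio of 5.54 at 40 min, and those below 0.5-fold sit at the low end of the read range.

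The risers reached higher read counts than the fallers, but not at 0 h. There the median was 51 reads for the risers at 40 min and 64 for the fallers. For those at 20 min it was 28 and 50. Among 6267 genes with 200 or more reads in 1 of the libraries, 19 were past 2-fold upward at 40 min and 8 at 20 min. None was past 2-fold downward at either time. A riser can pass this minimum through the library in which it is high, so these counts do not compare depth at 0 h. No faller had more than 97 reads at 40 min or 104 at 20 min in any of the 3 libraries. None of the fallers at 20 min was among those at 40 min.

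AP-1 is a dimer of FOS and JUN family proteins that binds DNA at promoters and enhancers. FOS, its most inducible subunit, had 90 reads at 0 h, 1408 at 20 min and 3384 at 40 min, or 10.3, 160 and 355 RPM. It was 15.5-fold above 0 h at 20 min (interval 12.5 to 19.4) and 34.3-fold at 40 min (27.8 to 42.8). FOSB, a close relative of FOS, went from 22 reads to 85 and 426, a ratio of 3.82 at 20 min and 17.7 at 40 min (11.5 to 28.5). Both were already far above 0 h at the first time and continued upward at the second.

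JUN, the partner that binds DNA together with FOS, had 213, 532 and 1575 reads, which is 2.47-fold at 20 min (2.10 to 2.91) and 6.75-fold at 40 min (5.85 to 7.82). ATF3, a stress-induced member of the family, had 51 reads at 0 h and 36 at 20 min, a ratio of 0.698 with an interval that spans 1 (0.442 to 1.09). At 40 min it had 208 reads and stood at 3.72-fold (2.73 to 5.16). ATF3 was thus past 2-fold at 40 min and not at 20 min. Of 13 AP-1 subunits tested, 3 were past 2-fold at 20 min and 4 at 40 min, with none lower, and the median log2 ratio at 40 min was 0.34 against 0.00 over all genes. The other subunits named next stayed under 2-fold at both times. FOSL1 stood at 1.82 and 1.85, JUNB at 1.22 and 1.44 and JUND at 1.02 and 1.137. The AP-1 group therefore holds strong risers beside members with ratios near 1.

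**Figure D2:**
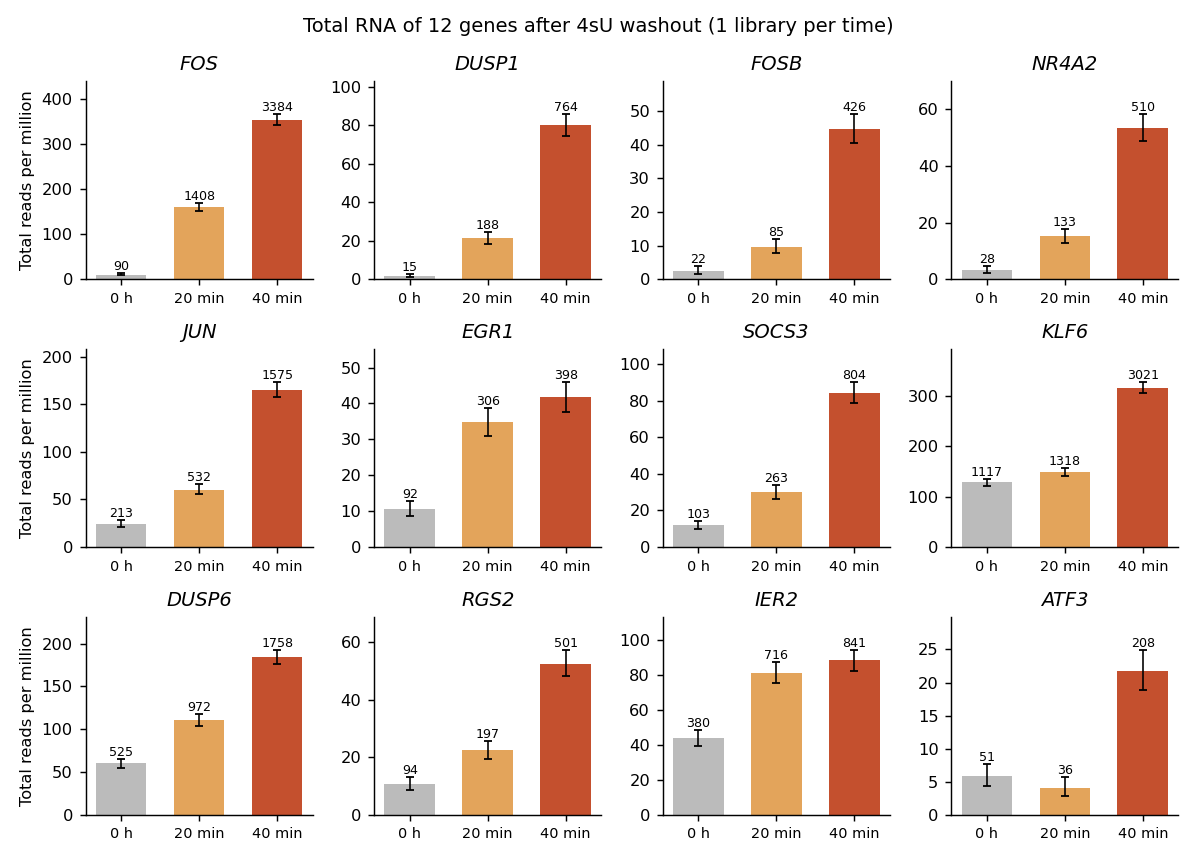
Total RPM of 12 genes at 0 h, 20 min and 40 min, with error bars for the exact 95% Poisson interval of the count and the read count above each bar, 1 library per time. FOS goes from 90 to 3384 reads, EGR1 gains most by 20 min, and KLF6 and ATF3 gain after it.

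EGR and NR4A proteins are zinc-finger transcription factors and orphan nuclear receptors that are switched on in the same early wave. EGR1 had 92, 306 and 398 reads, 3.29-fold above 0 h at 20 min (2.60 to 4.20) and 3.95-fold at 40 min (3.14 to 5.01). From 20 to 40 min its level went from 34.7 to 41.7 RPM, a much smaller step than the first. NR4A2, an orphan nuclear receptor, had 28, 133 and 510 reads and was 4.69-fold and 16.6-fold above 0 h (11.4 to 25.3 at 40 min). EGR3 had 26, 49 and 104 reads, 1.86-fold and 3.65-fold. Of the 7 listed members, these 3 reached the minimum, EGR3 and NR4A2 only through later libraries in which they were high, so their count past 2-fold is largely set by that minimum. EGR2, EGR4, NR4A1 and NR4A3 had at most 35 reads in any of the 3 libraries.

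IER2, an immediate-early gene of the nucleus, rose to 1.86-fold at 20 min (1.64 to 2.11) and 2.02-fold at 40 min (1.79 to 2.29), from 380 reads to 716 and 841. It was the 1 member of 4 in its list past 2-fold, beside IER5 at 1.502 and IER3 at 1.05 at 40 min. In the library without 4sU, IER2 stood at 307 RPM and EGR1 at 78.5 RPM, against 43.6 and 10.6 RPM at 0 h. Levels of these genes at 40 min, 88.1 and 41.7 RPM, were still below those of cells that never received 4sU. They were 2 of 6 risers with this order. The other 27 of 33 had a lower level without 4sU than at 40 min, among them FOS (12.35 RPM) and DUSP1 (0.343 RPM, 1 read), and the median ratio of the library without 4sU to 0 h over the risers was 0.597.

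KLF transcription factors read GC-rich promoters and several shape monocyte differentiation. KLF6 had 1117 reads at 0 h, 1318 at 20 min and 3021 at 40 min, so it moved little by 20 min (1.17-fold, 1.08 to 1.26) and was 2.47-fold up at 40 min (2.30 to 2.65). KLF2 went from 245 to 390 and 740 reads and KLF4 from 87 to 141 and 269. Their ratios at 40 min were 2.76 (2.38 to 3.20) and 2.82 (2.21 to 3.64). The other 7 of 10 members tested stayed between 0.869 (KLF10) and 1.27 (KLF5) at 40 min, and the list's median log2 ratio was 0.02. The KLF genes past 2-fold were thus KLF2, KLF4 and KLF6, and at 20 min no member was.

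Some genes that restrain signalling were among the risers, DUSP1, DUSP6, SOCS3, RGS1 and RGS2. DUSP1, a phosphatase that switches off the MAP kinases p38, JNK and ERK, had 15, 188 and 764 reads. It was 12.4-fold above 0 h at 20 min (7.32 to 22.6) and 46.5-fold at 40 min (28.0 to 83.5), and no gene tested had a larger ratio at 40 min. DUSP6, the ERK-specific phosphatase, had 525, 972 and 1758 reads, 1.83-fold and 3.06-fold (2.77 to 3.38). Of 8 MAP kinase feedback genes tested, 1 was past 2-fold at 20 min and 2 at 40 min, and the median log2 ratio at 40 min was 0.30. A ratio above 1 was seen in 4 of the 8 at 20 min and in all 8 at 40 min. Over all 9488 genes tested, 4771 and 4806 had a ratio above 1 at these times. SPRY1, an inhibitor of receptor tyrosine kinase signalling, had 0, 10 and 36 reads and did not reach the minimum.

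SOCS3, which blocks JAK-STAT signalling from cytokine receptors, had 103, 263 and 804 reads, 2.52-fold (2.00 to 3.20) and 7.13-fold (5.80 to 8.84). It was the 1 of 8 SOCS and PIM genes past 2-fold, with PIM1 next at 1.35 at 40 min. RGS1 and RGS2 speed up the shut-off of G proteins. RGS2 had 94, 197 and 501 reads, 2.07-fold and 4.87-fold (3.90 to 6.13), and RGS1 14, 53 and 146 reads, 3.74-fold and 9.52-fold (5.50 to 17.8). SIK1, a kinase induced by cAMP, had 13, 30 and 73 reads and a ratio of 5.13 at 40 min (2.82 to 10.1). These 3 were the members past 2-fold among 13 cAMP and CREB response genes, at 20 min and at 40 min, and CREM, the inducible repressor of the pathway, was at 1.13. TRIB1, a pseudokinase that directs protein degradation, had 99, 187 and 428 reads and a ratio of 3.95 at 40 min (3.17 to 4.96).

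CXCL8, PTGS2 and PPP1R15A were past 2-fold at 40 min and not at 20 min. CXCL8, the neutrophil chemokine interleukin-8, had 164, 215 and 475 reads, 1.30-fold and then 2.64-fold (2.21 to 3.18). PTGS2, the inducible cyclooxygenase, had 51, 51 and 124 reads, 0.988-fold and then 2.22-fold (1.59 to 3.14). CXCL8 and PTGS2 were 2 of 10 cytokines and related genes tested, of 23 listed. CCL3, CCL4 and CCL5 of that list were not analysed here. TNF (1.15) and IL1B (1.19) stayed under 2-fold at 40 min. PPP1R15A, the phosphatase subunit that reverses the integrated stress response, had 217, 304 and 514 reads, 2.16-fold (1.84 to 2.55), and was the 1 of 17 genes of that response past 2-fold, beside ATF4 at 0.998 and DDIT3 at 1.02. CITED2, a co-regulator of CBP and p300, had 281, 511 and 788 reads, 2.56-fold (2.23 to 2.94).

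OSR2, a zinc-finger transcription factor, was among the 10 largest rises at 40 min with 25, 30 and 204 reads, 7.45-fold (4.90 to 11.8), and had not moved by 20 min (1.19, 0.674 to 2.10). FOXJ1, the transcription factor of ciliated cells, had 19, 5 and 50 reads, so it was below 0.5-fold at 20 min and above 2-fold at 40 min on very few reads. PRDM6 (55 reads at 40 min) and NEDD4 (57 reads) were among the risers at both times on similarly few reads. ACSF3, SEPSECS and TMEM38A were past 2-fold at 20 min and not at 40 min, with at most 71 reads in any of the 3 libraries.

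Other gene lists chosen for this system showed no member past 2-fold in either direction. Over all genes tested, 0.348% were higher and 0.0843% lower at 40 min. At those shares, lists of the sizes given here and in the next paragraph would hold few or no such genes. An empty count is therefore near the background and says little about a list. The NF-kB inhibitors and subunits (13 tested) had a median log2 ratio of -0.03 at 40 min, with NFKBIA, the inhibitor that NF-kB itself induces, at 1.07 (1.02 to 1.12). The 8 ZFP36 and BTG genes, which recruit mRNA deadenylases, had none past 2-fold either. ZFP36 itself had 269, 367 and 397 reads, 1.35-fold at both times (1.15 to 1.58 at 40 min). No SRF target of the cytoskeleton (15), heat shock or chaperone gene (20), cold-inducible RNA-binding protein (3), interferon-stimulated gene (22), p53 target (17) or hypoxia-responsive gene (13) was past 2-fold. The same held for the pyrimidine salvage and synthesis genes (24), whose median log2 ratio at 40 min was -0.03, and for the cholesterol (19), metallothionein (7), polyamine (9) and glucose-responsive lists (9). TXNIP of the last list was not analysed here.

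MYC had 245, 286 and 286 reads, 1.15-fold at 20 min (0.969 to 1.37) and 1.07-fold at 40 min (0.895 to 1.27), so its intervals span 1. None of 28 regulators of leukaemia and blood formation was past 2-fold. CEBPD, a stress-responsive C/EBP factor, was at 1.68 and MCL1, which blocks apoptosis, at 1.24 (1.19 to 1.29) at 40 min. Of 77 ribosomal protein genes and 60 respiratory chain genes none was past 2-fold, with median log2 ratios of -0.00 and 0.02. ACTB was at 0.955 and GAPDH at 1.04 at 40 min.

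**Figure D3:**
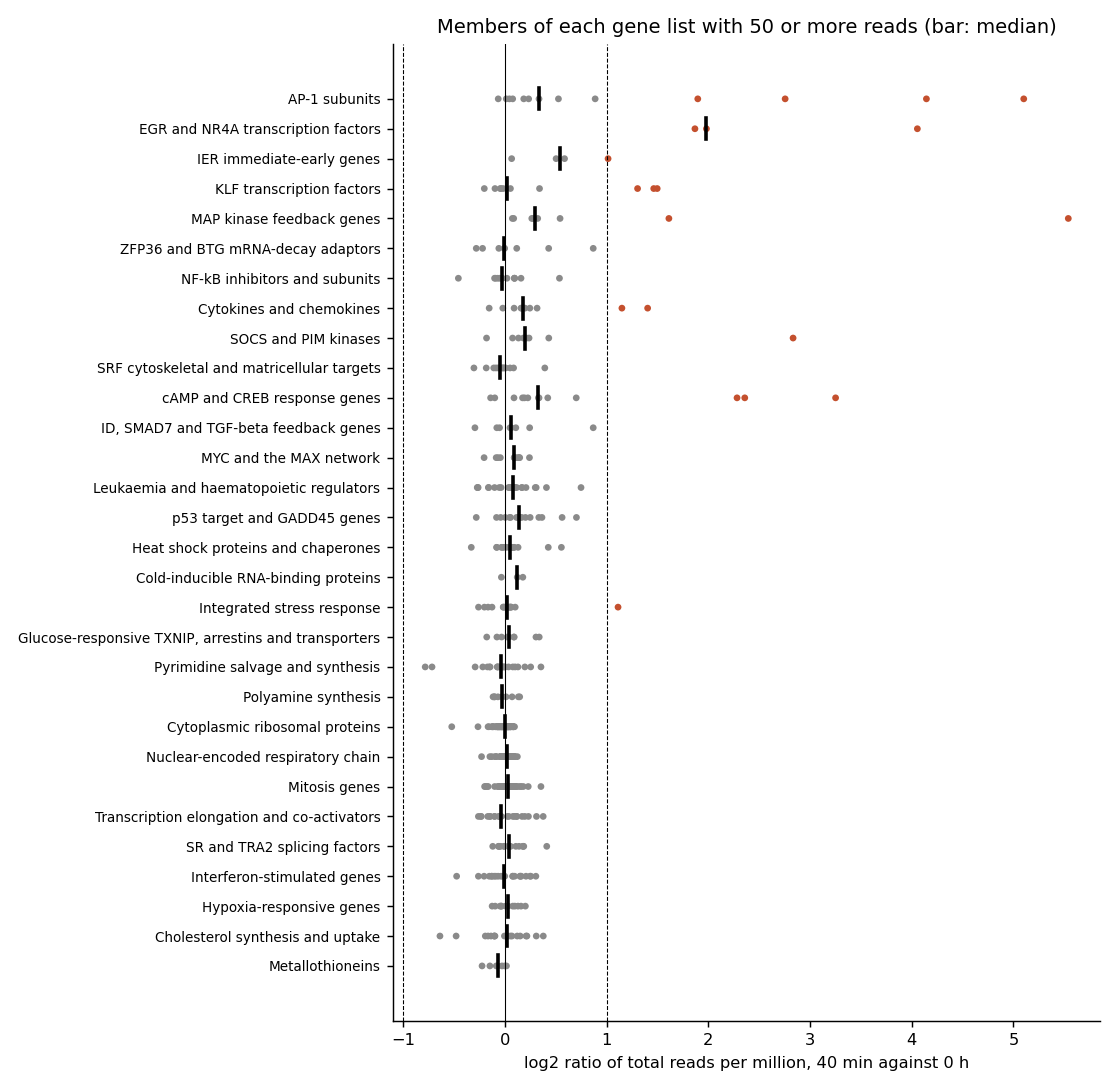
Log2 ratio of total RPM at 40 min to 0 h for the members of 30 gene lists that reached 50 reads, 1 point per gene, red past 2-fold, with a black bar at each list's median and dashed lines at 2-fold. Red points stand in the AP-1, EGR and NR4A, IER, KLF, MAP kinase feedback, cytokine, SOCS, cAMP and integrated stress response lists, and in no other list.

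The fallers had few reads and no common list. NUDT8, of the Nudix hydrolase family, had 75, 46 and 35 reads and the lowest ratio at 40 min, 0.426 (0.277 to 0.644). ZNF230, a zinc-finger protein, had 97, 63 and 49 reads, 0.461 (0.320 to 0.657), and PDCD2L 78, 43 and 41 reads, 0.480 (0.321 to 0.709). PCIF1, the enzyme that methylates the first adenosine of mRNA caps, had 50, 33 and 26 reads, and TMEM91, STXBP4 and ZNF669 had at most 72 reads at 0 h. At 20 min GXYLT2 (104, 51 and 89 reads), FBXW8 (97, 49 and 87), AL049844.1 (71, 31 and 51), ATP2B3, MCEE and PTGER2 were at or under 0.5-fold besides FOXJ1, and each was back above 0.5-fold at 40 min.

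Most risers were short genes, though not all. Counted by the annotated transcript of the segment used, they spanned a median of 6040 bases of the genome with 4 exons, against 25720 bases and 9 exons for all genes tested. Under 10 kb lay 24 of 33 (72.7%) against 23.8% of all, and 14 of 33 (42.4%) had 3 or fewer exons against 12.9%. The other 9 spanned 10 kb or more, up to 444240 bases in EDIL3. JUN has a single exon. These are counts and medians side by side, without a test. The segments counted start at chr14:75748128 for FOS, on the plus strand, and on the minus strand at chr5:172195093 for DUSP1 and chr1:59246465 for JUN, in hg19 and within the 3′ UTR as the deposited identifiers name it.

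Promoters of risers are shown because 5 genes of the early wave carry letters of known signal-response elements close to their start. RefSeq promoter windows (GRCh38.p14, from 250 bases before to 50 after the start) were at hand for 24 of the 33 risers. Below are the 200 bases just before the start, read 5′ to 3′ on the gene's strand, with capitals for the letters TGACG or its reverse complement (the half-site of the cAMP response element), TGACGTCA (the full element, which contains the half-site on both strands), the CArG box bound by SRF, and TATAAA. They lie at chr14:75278628-75278827 (plus strand, FOS), chr19:45467796-45467995 (plus, FOSB), chr5:172771196-172771395 (minus, DUSP1), chr5:138465279-138465478 (plus, EGR1) and chr1:58784048-58784247 (minus, JUN).
FOS: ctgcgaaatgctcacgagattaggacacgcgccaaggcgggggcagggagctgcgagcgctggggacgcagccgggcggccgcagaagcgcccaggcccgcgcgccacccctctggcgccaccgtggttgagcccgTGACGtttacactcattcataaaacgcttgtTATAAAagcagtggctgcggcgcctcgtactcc
FOSB: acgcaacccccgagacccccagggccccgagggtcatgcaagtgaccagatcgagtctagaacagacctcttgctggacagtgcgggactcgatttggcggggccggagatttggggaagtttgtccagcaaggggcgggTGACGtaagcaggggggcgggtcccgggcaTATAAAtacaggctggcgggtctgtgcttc
DUSP1: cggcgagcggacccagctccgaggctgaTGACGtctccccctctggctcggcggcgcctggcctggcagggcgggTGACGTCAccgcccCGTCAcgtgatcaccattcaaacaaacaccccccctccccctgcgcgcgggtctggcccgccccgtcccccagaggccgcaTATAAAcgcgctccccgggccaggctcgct
EGR1: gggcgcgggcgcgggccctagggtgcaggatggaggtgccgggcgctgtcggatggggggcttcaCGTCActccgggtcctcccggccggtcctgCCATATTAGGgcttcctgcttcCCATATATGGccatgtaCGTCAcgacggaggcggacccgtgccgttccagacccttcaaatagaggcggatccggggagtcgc
JUN: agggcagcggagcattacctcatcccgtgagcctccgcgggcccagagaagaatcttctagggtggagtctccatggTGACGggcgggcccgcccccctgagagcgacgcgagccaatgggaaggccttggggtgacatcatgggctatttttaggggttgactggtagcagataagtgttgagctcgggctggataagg

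FOS and FOSB share an arrangement in these windows. A half-site begins 64 bases before the start in FOS and 60 in FOSB, and TATAAA begins 33 and 30 bases before it. DUSP1 has the full element 125 bases before its start and 2 further half-sites outside it, and EGR1 has 2 CArG boxes between its 2 half-sites. Over the 24 risers with a window, 15 (62.5%) held TGACG on either strand against 42.3% of 7641 genes tested and 24.6% of all 35116 promoter windows. A riser or tested gene counted when any of its windows held the letters, while the last share counts single windows. Only the share over genes tested is therefore a like measure, here and in the values that follow. The full element was in 2 (8.33%) against 4.10% and 1.85%, the CArG box in 1 (4.17%, EGR1) against 1.54% and 1.29%, and the AP-1 site TGANTCA with C or G in the middle in 3 (12.5%) against 4.48% and 4.95%. TATAAA was in 8 (33.3%, among them CXCL8, ATF3 and PTGS2) against 7.70% and 11.5%. A match is a run of letters and does not show binding, and no factor was measured here.

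Transcript ends were also read, because AU-rich elements mark many short-lived mRNAs. In the last 1000 bases of the annotated transcript, 16 of 33 risers (48.5%) had 3 or more ATTTA pentamers, against 29.6% of all genes tested, and 2 (6.06%) had the nonamer TTATTTATT, against 4.00%. The nonamer count is near the share over all genes and says little about the risers. The 2 were FOS and DUSP1, and the stretch around the first nonamer of each is shown with the nonamer in capitals.
FOS: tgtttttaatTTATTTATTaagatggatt
DUSP1: gggctggtccTTATTTATTtaacttcacc

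Labelled and unlabelled reads answer a further question of the washout, which of the added RNA still carried the label. Labelled reads alone were higher for 11 genes at 20 min (0.144%) and lower for 8 (0.105%), and at 40 min higher for 16 (0.21%) and lower for 7 (0.0918%). Unlabelled reads were higher for 29 genes at 20 min (0.348%) and lower for 6 (0.0721%), and at 40 min higher for 56 (0.673%) and lower for 3 (0.036%). Labelled RNA of the strongest risers thus continued to build up after the medium with 4sU had been removed. FOS had 64 labelled reads at 0 h, 706 at 20 min and 1548 at 40 min, a ratio of 22.1 at 40 min (17.2 to 28.8), and its unlabelled reads went from 26 to 702 and 1836, a ratio of 64.5 (43.9 to 98.9). DUSP1 had 7, 83 and 261 labelled reads and 8, 105 and 503 unlabelled reads. The unlabelled ratio at 40 min was 57.4 (28.9 to 134) and the labelled ratio 34.0 (16.3 to 85.5).

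NR4A2 had 14, 41 and 170 labelled reads (11.1-fold at 40 min) and 14, 92 and 340 unlabelled reads (22.2-fold). FOSB had 6, 27 and 65 labelled reads (9.89-fold) and 16, 58 and 361 unlabelled reads (20.6-fold). OSR2 completed the 5 largest labelled rises with 12, 17 and 82 reads, and EGR3 the 5 largest unlabelled rises with 4, 18 and 60 reads. At 20 min ZFYVE16 was among the 5 largest labelled rises with 20, 52 and 29 reads, while its total stood at 1.71-fold. Among the labelled fallers at 20 min BATF, an AP-1 subunit of immune cells, had 69, 29 and 52 labelled reads with its total level at 0.995-fold. SPP1, which encodes osteopontin, was among the 3 unlabelled fallers at 40 min with 90, 76 and 49 reads.

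The labelled share of the added reads was computed as the gain in labelled RPM over the gain in total RPM. This net gain also includes whatever was lost in the interval. For the 33 risers together, 35.1% of the gain from 0 h to 20 min was labelled (32.4 to 37.9) and 26.9% of the gain from 20 to 40 min (25.2 to 28.7). FOS holds a large part of these reads. Without it the values were 29.03% (25.18 to 32.88) and 23.2% (21.25 to 25.24), lower in the later step but with intervals that overlap. For FOS itself the shares were 48.7% (45.8 to 51.6) and then 42.1% (38.4 to 45.9), for DUSP1 43.9% (35.9 to 52.0) and then 30.5% (25.2 to 35.9), and for FOSB 33.4% (18.4 to 48.3) and then 10.7% (5.40 to 16.0).

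SOCS3 had 38.7% (27.0 to 50.4) and then 24.7% (18.6 to 30.7), and RGS2 26.0% (9.02 to 42.9) and then 10.1% (1.40 to 18.7). JUN had 25.5% (16.9 to 34.2) and then 21.5% (17.2 to 25.7). NR4A2 went the other way, from 25.6% (14.2 to 37.1) to 34.3% (27.8 to 40.8), as did CITED2, from 22.9% (8.63 to 37.1) to 48.8% (33.3 to 64.3). Of 12 genes whose gain was at least 4 times its counting error in both steps, 9 had a lower labelled share in the later step. The intervals of the steps were apart for DUSP1 and FOSB and overlapped for the other 10, FOS, JUN, SOCS3, RGS2, NR4A2 and CITED2 among them. These intervals do not allow for the 20 min library that both steps share. The gain of IER2 by 20 min was 41.9% labelled (32.1 to 51.7), and from 20 to 40 min its labelled reads went from 318 to 284 while unlabelled reads went from 398 to 557.

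**Figure D4:**
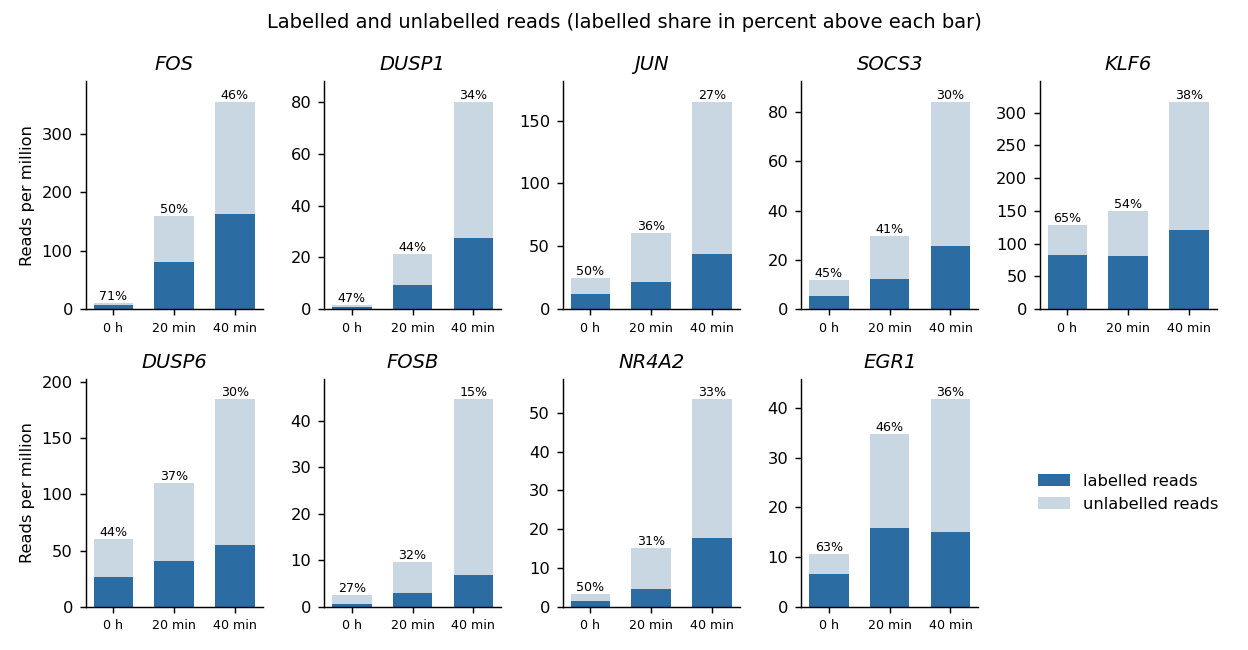
Labelled (dark) and unlabelled (light) RPM of 9 genes at 0 h, 20 min and 40 min, stacked, with the labelled share of the gene's reads above each bar. Both parts grow for FOS and DUSP1, and at 40 min the unlabelled part is the larger in all 9 genes.

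The labelled share of reads was lower at 40 min than at 0 h in 30 of the 33 risers and higher in EDIL3, NEDD4 and SOS2, each with few reads. Pooled over the 33 genes it was 56.8% at 0 h, 46.0% at 20 min and 36.3% at 40 min. KLF6 went from 64.7% to 53.9% and 38.4%, JUN from 50.2% to 35.5% and 26.6%, and KLF2 from 54.7% to 45.6% and 35.5%. All 7 risers with 200 or more reads in each library had a lower share at 40 min than at 0 h, while 53.03% of the 5695 genes at this depth did. The median share of those genes was 42.6% at 0 h, 41.4% at 20 min and 42.3% at 40 min.

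A fall of 10 percentage points or more by 40 min was seen in 128 of the 5695 genes, 88 of them with intervals that do not overlap, and a rise of that size in 25, 13 with intervals apart. At 20 min the numbers were 97 (48 apart) and 18 (5 apart). Of the 128, 7 were past 2-fold in total level and 121 were not. PTGER4, a prostaglandin E2 receptor, went from 62.6% to 41.7% at a total ratio of 1.90. SCAF11, a splicing-related protein, went from 41.9% to 21.2% at a ratio of 1.33. ZFP36 went from 79.2% to 58.9% at 1.35, and its labelled reads were 213, 257 and 234 while its unlabelled reads went from 56 to 110 and 163. SGK1, a kinase induced by serum and glucocorticoids, went from 63.5% to 48.1% at a ratio of 1.95, just under the line. PHF23 had the largest rise, from 40.4% to 56.3% at a ratio of 0.987.

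**Figure D5:**
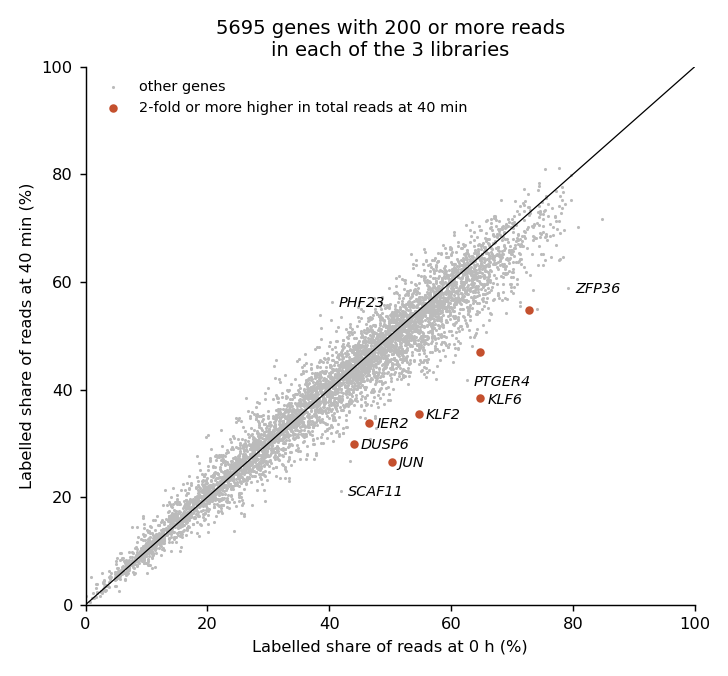
Labelled share of a gene's reads at 40 min against the share at 0 h, in percent, 1 point per gene for 5695 genes with 200 or more reads in each of the 3 libraries, with a line of equal shares and risers at 40 min in red. All 7 red points lie below the line, with JUN at 26.6% and KLF6 at 38.4%.

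After 40 min most risers continued upward for a short time. Between 0 h and 2 h, 9 of the 33 had their highest level at 40 min, 20 at 1 h and 4 at 2 h. These ratios share the 0 h library with the choice of the genes and are given as a description. Their median ratio to 0 h was 1.83 in the 20 min library, 2.82 in the 40 min library and 4.24 in the 1 h library, then 2.44, 1.48 and 1.80 in those of 2, 8 and 12 h. In the 12 h library 14 of the 33 were 2-fold or more above 0 h. There 7 were above their own level at 40 min, among them DUSP6 with 280 RPM against 184 RPM. Over all genes 67 (0.706%) were past 2-fold upward at 1 h and 138 (1.45%) at 2 h. FOS was back at 119 RPM at 1 h and 23.7 RPM at 2 h, and DUSP1 at 47.6 and 3.23 RPM. SOCS3 stood at 178 RPM at 1 h, FOSB at 69.4 RPM and KLF6 at 434 RPM, each above its level at 40 min, and KLF4 was higher still at 2 h (62.4 RPM) than at 1 h (57.4 RPM).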

How the data were processed

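SLAM-seq was done on 8 libraries of THP-1 cells, and 3 of them are compared here. Members and gene lists were chosen with earlier results of these data known. The authors deposited raw counts per transcript segment of the 3′ UTR, once for all reads and once for converted reads. Trim Galore 0.6.5, bcl2fastq 2.17.1.14 and, as builds, dm3 and hg19 appear in the submitters' processing notes. What aligned and counted the reads, and how many conversions make a read labelled, is not given in the sources used, so labelled shares rest on an unknown threshold. Drosophila spike-in reads were not used. The labels do not say whether the times came from separate cultures.

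GENCODE 29 named 48045 of 56570 transcripts (84.9%), and 5.65% of counts had no match. Segments on alternative contigs (3056) and 87 genes with counts identical to another gene's were left out. Each gene took its most covered segment, scaled per 1000000 gene reads. Ratios have exact (Clopper-Pearson) conditional binomial 95% intervals, and a count of 0 was set to 3. Intervals of gain shares use the delta method on Poisson errors. The scripts (Python 3.11.15, pandas 2.3.3, scipy 1.17.1) were tested on simulated data. Named genes were the 10 largest rises and falls in total reads, the 5 largest in labelled and in unlabelled reads, list members past 2-fold or the most read member, and FOS, EGR1, JUN, IER2, DUSP1, ZFP36, MYC, TXNIP, ACTB and GAPDH. Other genes were named after their values were seen. Alternatives were TMM (edgeR 4.0.16) and DESeq2 1.42.0 scaling in R 4.3.3, the deposited column sum, other read minimums, other folds and other gene counts. Some genes that the rule names are not reported here.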

Additional observations from a re-analysis of the deposited data

Results flagged for a closer look

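Outside the genes that could be named, 1790 distinct segments of transcripts without a match reached 50 reads, and 4 of them (0.224%) were 2-fold or more higher at 40 min. The strongest starts at hg19 chr17:34415602 on the minus strand, with 87 reads at 0 h, 185 at 20 min and 383 at 40 min, 4.02-fold (exact 95% counting interval 3.18 to 5.13), and 7 reads in the library without 4sU. Its labelled share went from 31.0% to 25.4% and 18.8%. It is given because it is a signal in data that no comparison above uses, and its transcript was not named here. A pair of segments on the plus strand at chr17:34539297 and chr17:34539967 had 23 reads at 0 h and 64 and 63 at 40 min. The fourth, at chr14:39819469, starts where the segment counted for MIA2 does, which was itself a riser (40, 71 and 103 reads).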

How the results depend on the processing

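Counts of genes past 2-fold depended on the read minimum, the fold and the handling of segments. They are given for total, labelled and unlabelled reads in turn, each as higher and lower at 20 min and then higher and lower at 40 min. With a minimum of 20 reads they were 58, 48, 92 and 52 in total, 54, 89, 86 and 77 in labelled and 90, 66, 152 and 53 in unlabelled reads. With a minimum of 200 they were 8, 0, 19 and 0, then 3, 0, 5 and 0, and then 11, 0, 22 and 0. Without a minimum they were 331, 398, 397 and 354, then 343, 480, 416 and 391, and then 410, 398, 513 and 338. A 1.5-fold threshold gave 95, 84, 137 and 77, then 90, 141, 115 and 108, and then 169, 84, 250 and 71. A 3-fold threshold gave 7, 1, 16 and 0, then 3, 0, 7 and 0, and then 8, 0, 24 and 0. With all distinct segments of a gene summed, the counts that moved were 18 and 16 lower in total, 19 higher and 23 lower at 20 min and 36 higher and 17 lower at 40 min in labelled, and 12 and 11 lower in unlabelled reads. TMM, DESeq2 and column-sum scaling, the segment chosen on the 3 libraries, and the interval rule left each of these counts within 1.5 times.

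The labelled share of all reads at 0 h, 20 min and 40 min was 30, 29.5 and 30.1% over genes with 200 reads and 28.7, 28.2 and 28.9% with segments summed. The labelled share of the risers' gain from 0 to 40 min was 29.6%, and 30.8% without a minimum. An alternative chosen after seeing the data, leaving out FOS, gave 29.03% from 0 to 20 min, 23.2% from 20 to 40 min and 24.9% over both. List members past 2-fold downward numbered 0, and 2 at each time without a minimum. All 1164 recomputed log2 ratios of named genes stayed within their counting intervals, as did 477 of 480 list medians. No log2 ratio of a named gene past 2-fold changed sign. Smaller ratios and list medians were not checked for sign. No paired analysis was possible because each condition is 1 library.

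The depth limits the fallers: all had under 105 reads. Time, culture and library preparation cannot be told apart with 1 library each.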
